A study of Rattus norvegicus with 5 samples.

Results

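Retina at 4 weeks of diabetes was set against control retina, with 1 single-cell RNA library on each side. The cells compared were barcodes with at least 200 detected genes and at most 20% of their unique molecular identifiers (UMIs, counts of captured transcripts) from mitochondrially encoded genes. Of 20459 deposited barcodes in both libraries, 15810 passed, 7400 from control and 8410 from diabetic retina. The 4 libraries analysed from the series held 32983 passing cells, and the other control sample of the 5 in the series was not analysed here. Both groups were SD rats. The diabetic rats received streptozotocin, a toxin of pancreatic beta cells, at 45 mg/kg, had blood glucose above 200 mg/dL, and were then kept for 4 weeks on food rich in fat and sugar. The control rats received citrate buffer and were sampled at 0 weeks. Diabetes, age, diet, animal and preparation therefore cannot be told apart in any value below, and 1 library a side allowed no test between groups. All intervals are 95% intervals for counting error only, and "higher" and "lower" describe these 2 libraries.

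The retina is layered neural tissue in which rods and cones detect light, bipolar cells pass the signal inward, amacrine cells shape it, and Müller glia supply metabolites and clear transmitter. Microglia are its resident immune cells, and its capillary endothelium forms the inner blood-retina barrier. Photoreceptors run a high rate of glycolysis and respiration, and diabetic retina is known for glial reactivity, vascular leakage and microglial activation. Cells that lack amino acids or meet protein-folding stress raise translation of the transcription factor ATF4, which induces amino acid transporters, synthesis enzymes and aminoacyl-tRNA synthetases.

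The passing cells held 15889862 UMIs in control and 13570116 at 4 weeks, with medians of 1079.5 and 939 UMIs per cell. The libraries shared 27 barcodes. After removal of predicted doublets, 6823 control and 7689 diabetic cells were clustered together with the 2- and 8-week libraries into 28 clusters, which took class names from marker genes. All 12 rod, 12 cone, 16 microglial and 12 endothelial naming markers had UMIs in their own class in both libraries. In each library, 2 of 16 Müller glial and 1 of 16 amacrine markers had none in their class. Of 27 bipolar markers, 2 had none in control and 1 at 4 weeks. All 12 rod markers also had UMIs in Müller glia, bipolar and amacrine cells, so presence alone does not mark a class. RNA shared between droplets was estimated from rod genes at 4.14 to 8.40% of the UMIs of control Müller glia, amacrine cells, microglia and endothelium, at 4.90 to 7.70% of the same classes at 4 weeks, and at 22.3 and 20.4% of bipolar cells. In cones the same estimate was 72.7% in control and 41.0% at 4 weeks, where genes that rods and cones both use count as free RNA. The rod phototransduction list was higher at 4 weeks in every compared class but rods and cones, with medians from 0.49 to 1.00, so genes of rods are not described in those classes.

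The first comparison was of cellular make-up. Rods made up 79.0% of clustered control cells (interval 78.0 to 79.9%) and 85.0% at 4 weeks (84.1 to 85.8%), a log2 ratio of 0.11. Amacrine cells were also a larger share, with 185 cells (2.71%) in control and 276 (3.59%) at 4 weeks. Müller glia numbered 375 (5.50%) and 279 (3.63%), a log2 ratio of -0.60 (interval -0.83 to -0.37). Microglia numbered 202 (2.96%) and 79 (1.03%), and endothelial cells 92 (1.35%) and 33 (0.429%), with log2 ratios of -1.52 and -1.64. Pericytes or smooth muscle cells, which sheathe the vessels, numbered 40 in control and 5 at 4 weeks, a log2 ratio of -3.05 (interval -4.87 to -1.83). The intervals of bipolar shares overlapped, at 3.97 and 4.06%, and with mitochondrial limits of 10 and 40% the log2 ratio of that share was 0.29 and -0.31. A share moves when that of another class moves. Among barcodes nearest to microglia, 12.9% in control and 46.3% at 4 weeks were over the mitochondrial limit and are not in these shares. At 4 weeks the 68 barcodes over the limit held 51 UMIs of the microglial marker C1qa, so their identity is uncertain. For bipolar cells the share over the limit was 86.6 and 82.6%, so bipolar values come from the minority of such barcodes below the limit.

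**Figure D1:**
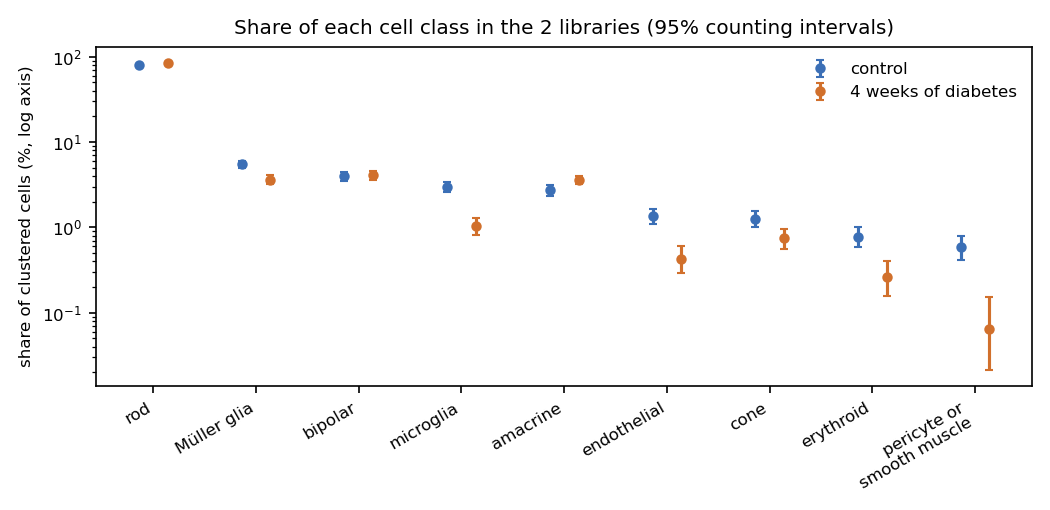
Share of clustered cells (%, log axis) in each cell class for the control (blue) and 4-week (orange) libraries, with exact 95% counting intervals as bars. The vascular and microglial points at 4 weeks lie below control, from 2.96 to 1.03% in microglia and from 1.35 to 0.429% in endothelium.

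In the sum over all passing cells, a gene's level moves with the number of cells of a type as well as with RNA per cell, and these cannot be told apart. Levels are given as counts per 1000000 UMIs (CPM), taken over the cells that were summed. Genes were used where they averaged 20 CPM or more over both compared libraries, with 30 UMIs or more in the pair. Of 6417 such genes, 50 were at least 2-fold higher (0.779%) and 211 at least 2-fold lower (3.29%) at 4 weeks. The median log2 ratio over all genes was 0.12. Among the lower genes were products of the classes with smaller shares. Rgs5, a G-protein regulator of pericytes, stood at 67.5 CPM in control and 9.73 at 4 weeks, and the microglial chemokine Ccl4 at 463 and 14.8. Among the higher genes were Fabp5, a fatty acid binding protein, at 225 and 662 CPM, the water channel Aqp1 at 31.5 and 80.7, and the cold-inducible RNA binding protein Cirbp at 181 and 423. The 2- and 8-week libraries held Fabp5 at 514 and 339 CPM, between the values of the compared pair.

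Rods were compared over 5388 control and 6533 diabetic cells. Of 6045 genes used, 77 were at least 2-fold higher (1.27%) and 226 at least 2-fold lower (3.74%), and the median over all genes was 0.03. By sign alone, whatever the interval, 3190 of the genes used were higher and 2855 lower. How many of all genes used had intervals that left out 0 is not given for any class. Counts of list members with intervals above or below 0, here and below, therefore have no baseline. Only the median of a list can be set beside that of all genes. Genes of the response to amino acid shortage were lower as a list. The diabetic libraries differed among themselves for such genes. Over all passing cells Asns, asparagine synthetase, stood at 130 CPM in control and 15.6 at 4 weeks, with 8.06 and 113 at 2 and 8 weeks. Chac1, another member, stood at 87.7 and 9.80 CPM in the compared pair, with 2.39 and 26.0 at 2 and 8 weeks. All 20 used genes of the ATF4 amino acid response list had intervals that left out 0, with 19 lower and 1 higher, 12 of them at least 2-fold lower, and a median log2 ratio of -1.28 (-1.01 at a minimum of 100 CPM). Slc7a1, the arginine and lysine importer, stood at 64.7 CPM in control (403 UMIs) and 0.888 at 4 weeks (6 UMIs), a log2 ratio of -6.07 (interval -7.64 to -5.05). Psat1, a serine synthesis enzyme, stood at 50.9 CPM (317 UMIs) and 1.04 (7 UMIs), a log2 ratio of -5.52 (interval -6.95 to -4.56). Transporters were lower over a range of sizes. Slc38a2, a neutral amino acid importer, stood at 567 and 232 CPM. Slc7a5 and Slc3a2, the paired subunits of the leucine exchanger, stood at 192 and 79.5 CPM and at 683 and 338 CPM. Atf4 mRNA itself stood at 2942 and 2755 CPM, a log2 ratio of -0.09 (0.023 under median-of-ratios scaling), and Cebpb, a partner of ATF4, was the member that was higher, at 36.6 and 46.8 CPM.

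The aminoacyl-tRNA synthetases, which load amino acids onto their tRNAs, were lower by enzyme. Of 20 used, 13 had intervals below 0 and 3 above, 9 were at least 2-fold lower, and the median was -0.71 (-1.37 at a minimum of 100 CPM). The leucine enzyme Lars stood at 596 and 116 CPM, a log2 ratio of -2.37 (interval -2.48 to -2.26). The methionine enzyme Mars stood at 307 and 64.5, the isoleucine enzyme Iars at 245 and 58.9, and the glutamate and proline enzyme Eprs at 377 and 98.1 CPM. The enzymes for asparagine (Nars, 725 and 296 CPM) and threonine (Tars, 227 and 80.5 CPM) were lower as well. In contrast, the tryptophan, lysine and phenylalanine enzymes were higher. Wars stood at 21.5 and 32.9 CPM, Kars at 34.7 and 48.5, and Farsa had a log2 ratio of 0.27. Qars, Hars, Farsb and Vars had intervals that held 0. Eif4ebp1, which restrains cap-dependent translation, stood at 44.6 and 2.66 CPM, a log2 ratio of -4.03, and was the lowest of 15 used insulin and IGF signalling genes. That list had a median of -0.24, with 10 intervals below 0 and 3 above. Of 20 chaperone and degradation genes of the endoplasmic reticulum, 9 had intervals above 0 and 3 below, with a median of 0.04. P4hb, a disulfide isomerase, stood at 80.6 and 132 CPM, and Herpud1, of the degradation branch, at 662 and 217.

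Promoters of genes used in rods were searched on both strands for the ATF4 composite element, written TGATGNAA. The region ran from 250 bases before to 50 after each gene start (RefSeq, build GRCr8, matched by symbol). Of the 40 used genes of the ATF4 and synthetase lists only 22 had an entry, so most synthetases were not searched. The element was present in 1332 of 33469 promoters (3.98%) and in 83 of 4785 promoters of genes used in rods (1.73%). Among the genes at least 2-fold lower it was present in 12 of 166 (7.23%), and among those at least 2-fold higher in 0 of 55. These were the genes with an entry, of 225 lower and 77 higher symbols. Of the 20 list members, 5 held it (25.0%), namely Trib3, Chac1, Slc7a1, Slc1a4 and Pck2. A match is a description of letters and shows no binding. The stretches of 3 of these promoters are printed because their genes were among the lowest in rods at 4 weeks, with the matched letters in capitals (reversed and complemented in Chac1 and Slc1a4), each 5′ to 3′ on the strand of its gene. Chac1, a glutathione-degrading enzyme, lies on the plus strand at chr3:126795942-126795993. Slc7a1 lies on the plus strand at chr12:11664436-11664487, and Slc1a4, a serine and alanine transporter, on the minus strand at chr14:98761768-98761812.
Chac1: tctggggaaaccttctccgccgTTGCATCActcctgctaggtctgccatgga
Slc7a1: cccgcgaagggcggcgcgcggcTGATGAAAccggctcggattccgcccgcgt
Slc1a4: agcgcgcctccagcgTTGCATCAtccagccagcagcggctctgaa
The match began 167 bases before the start of Chac1, 30 before that of Slc7a1 and 235 before that of Slc1a4. In rods Chac1 stood at 184 and 12.7 CPM and Slc1a4 at 67.6 and 17.2. The other lower genes with a match included Eif2s2, the beta subunit of the initiation factor whose alpha subunit is the stress kinases' target, at 897 and 381 CPM, and the mitochondrial chaperone Hspa9 at 119 and 59.5. These were chosen after their values were seen.

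**Figure D2:**
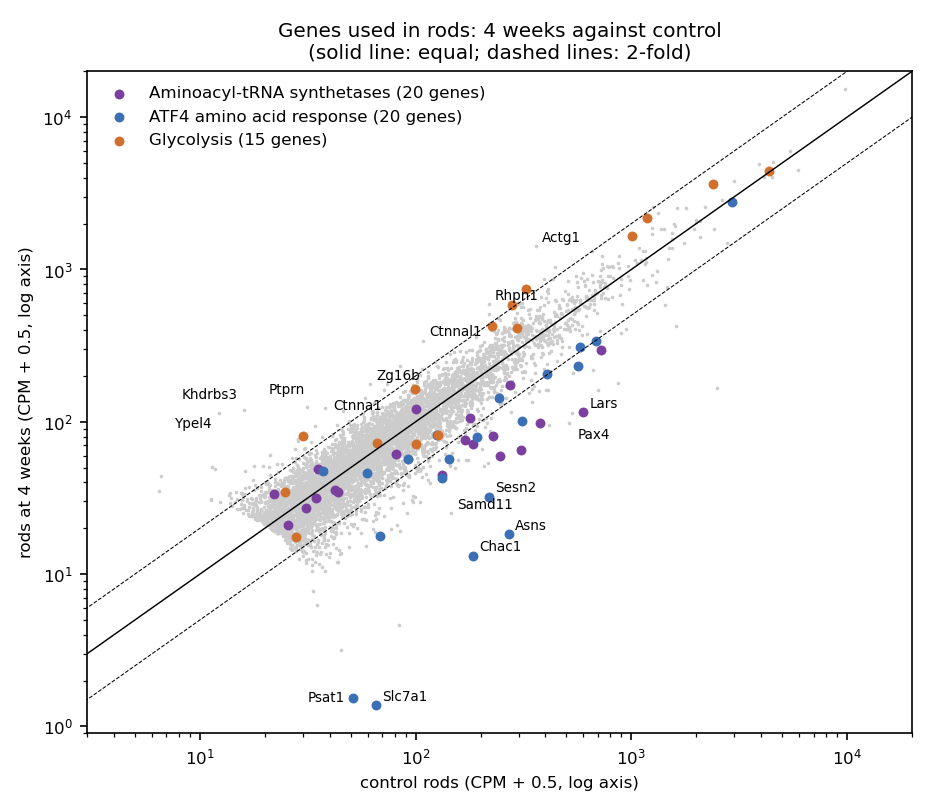
Level of each gene used in rods in control (horizontal) and at 4 weeks (vertical), as CPM + 0.5 on log axes, with equality as a solid line and 2-fold differences dashed. ATF4 list genes (blue) and aminoacyl-tRNA synthetases (purple) fall mostly under the line, down to Slc7a1 at 64.7 and 0.888 CPM, whereas most glycolysis genes (orange) lie above it.

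Rods at 4 weeks held more RNA of glycolysis genes and of nuclear genes of the respiratory chain. The mitochondrially encoded genes of that chain are not in these lists. Over all passing cells, the median share of UMIs from mitochondrially encoded genes was 3.30% in control and 2.23% at 4 weeks. Of 15 used glycolysis genes, 10 had intervals above 0 and 3 below, with a median of 0.60. Tpi1 stood at 29.7 and 80.4 CPM, and Aldoc, an aldolase, at 325 and 748, a log2 ratio of 1.20. Pkm (127 and 80.9 CPM) and Pfkp (27.3 and 17.0) were lower. Of 55 nuclear genes of the respiratory chain, 48 had intervals above 0 and 2 below, with a median of 0.44, and Ndufa2, a subunit of complex I, stood at 149.8 and 255 CPM. Among 18 genes of oxidative stress defence, 12 had intervals above 0 and 1 below, with a median of 0.53. The lipid peroxide reductase Gpx4 stood at 1327 and 2334 CPM, the glutathione synthetase Gss at 17.2 and 41.0, and the glutathione transferase Gstp1 at 20.4 and 49.7.

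Immediate early genes, which are transcribed within minutes of a stimulus, were mixed in rods. Of 11 used, 7 had intervals below 0 and 3 above, with a median of -0.99. Jun stood at 702 and 161 CPM and Dusp1, a phosphatase that ends MAP kinase signals, at 211 and 106. Fos stood at 181 and 183 CPM, with an interval that held 0, and Btg2 was higher, at 326 and 408.

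Genes of rod identity and structure varied by part of the cell. Among 15 used phototransduction genes 9 had intervals above 0 and 4 below, with a median of 0.07. The most abundant, phosducin (Pdc), which binds transducin subunits, stood at 9826 and 15317 CPM. The retinoid transporter Abca4 stood at 419.9 and 215 CPM and Gucy2f, a guanylate cyclase, at 229 and 158. Of 10 transcription factors of photoreceptors 5 had intervals below 0 and 2 above, with a median of -0.24. Crx, which drives photoreceptor genes, stood at 34.7 and 15.8 CPM, Pax4 at 515 and 98.4 (a log2 ratio of -2.39, interval -2.51 to -2.27), and Rorb was higher, at 133 and 202. Pax4 was not on that list. Outer segment and cilium genes were split, 9 above and 12 below of 27. Their median was -0.08, and 0.00 and 0.03 under TMM and median-of-ratios scaling. Rpgr, a ciliary gene of inherited retinal dystrophy, stood at 36.0 and 17.6 CPM, Cep290 at 1178 and 793, and Cdhr1, a cadherin of the outer segment base, at 556 and 903.

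The ribbon synapse, by which rods release glutamate, had lower transcripts for several calcium channel and scaffold genes. Of 24 used, 11 had intervals below 0 and 5 above, with a median of -0.19, which was 0.0017 at a minimum of 100 CPM. Dystrophin (Dmd), which anchors the synaptic complex, stood at 1433 and 587 CPM, Rims2, an active zone scaffold, at 941 and 408, and Pclo at 192 and 93.2. The calcium channel subunits Cacna1f (226 and 113 CPM), Cacna2d4 (42.2 and 17.8) and Cacnb2 (36.1 and 15.5) were lower, and Snap25, of the fusion machinery, was higher at 311 and 600.3. Of 28 splicing factors 18 had intervals below 0 and 7 above, with a median of -0.24, and Srsf5 stood at 403 and 162 CPM. Of 16 clock genes 10 had intervals below 0 and 3 above, with a median of -0.55. The output factor Dbp stood at 87.5 and 39.4 CPM, and the hour of dissection, which the labels do not give, cannot be told apart.

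Genes higher in rods by the naming rule were of mixed function. Actg1, cytoplasmic gamma actin, stood at 360.0 and 1422 CPM, a log2 ratio of 1.98 (interval 1.92 to 2.05), with 858 and 517 CPM at 2 and 8 weeks. Near-identical actin genes can share reads, so the split between them is uncertain. The catenin-related Ctnnal1 stood at 107 and 341 CPM and Ctnna1, alpha catenin, at 37.4 and 123. Rhpn1 stood at 218 and 592 CPM, Ptprn, a receptor-like phosphatase of dense core vesicles, at 30.8 and 125, and the lectin Zg16b at 61.2 and 177.

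Rods of the 2 libraries fell largely in different clusters. Cluster 3 held 55.7% and cluster 4 held 34.9% of control rods, against 3.57 and 0.551% of rods at 4 weeks, of which 82.5% lay in cluster 2. Cluster 2 held 250 control rods (4.64%). Of 3045 rods at 8 weeks of diabetes, 1250 lay in cluster 3 and 1466 in cluster 4, the clusters of most control rods. Clusters were made from the same genes, so the values within them are a description. In each of clusters 1, 2, 3, 4 and 7, the levels of Asns, Lars, Mars and Eprs were lower at 4 weeks, and those of Actg1 and Aldoc higher, with intervals that left out 0. In cluster 2 Lars stood at 446 and 118 CPM, in cluster 3 at 641 and 182, and in cluster 4 at 601 and 156. In the same clusters Actg1 stood at 413 and 1423 CPM, at 338 and 1330.4, and at 364 and 1302. The asparagine synthetase Asns stood at 113 and 17.7 CPM in cluster 2 and at 268 and 48.1 in cluster 3. The ATF4 list had a median of -0.83 in cluster 2 and -0.84 in cluster 3, and the ribbon synapse list one of 0.00019 in cluster 2. In cluster 3 alone, the signs of Cacnb2 (0.28), Gucy2f (0.029), Pfkp (0.14), Rpgr (0.28) and Ndufa2 (-0.41) were opposite to those in all rods. Chac1 was less alike, with log2 ratios of -3.26 in cluster 2 and -0.99 in cluster 3, and in clusters 1 and 7 its interval held 0. Rods of cluster 7 at 4 weeks had a median of 16.8% mitochondrial UMIs against 3.86% in control. The other rod clusters went the other way. In control and at 4 weeks the medians were 3.21 and 1.80% in cluster 1 and 2.90 and 1.79% in cluster 2. They were 2.94 and 1.59% in cluster 3, 2.70 and 1.76% in cluster 4, and 2.14 and 1.94% in cluster 6. Müller glial markers, which enter rods as free RNA, summed to 669.9 CPM in control rods (13 of 16 with UMIs) and 541 at 4 weeks (14 of 16), and microglial markers to 79.6 and 36.7 CPM. Their part in these results was not tested.

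**Figure D3:**
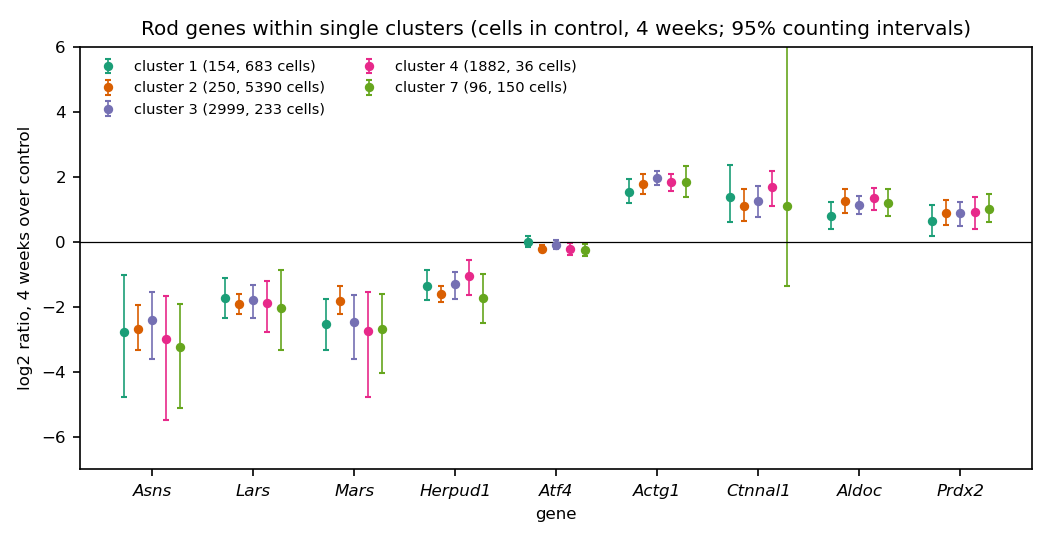
Log2 ratio of 4 weeks over control (vertical axis) for 9 genes in rods of single clusters (colours), with 95% counting intervals and the number of control and 4-week cells in the key. Asns, Lars, Mars and Herpud1 lie below 0 in all 5 clusters and Actg1 and Aldoc above 0, while Atf4 lies near 0.

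Müller glia, the radial glia of the retina, were compared over 375 control and 279 diabetic cells. Of 5941 genes used, 143 were at least 2-fold higher (2.41%) and 102 at least 2-fold lower (1.72%), with a median of 0.04. Targets of the hypoxia-inducible factors were higher as a list, with 11 of 17 intervals above 0, none below, 4 members at least 2-fold higher and a median of 0.41. Vegfa, the endothelial growth factor, stood at 286 CPM in control (379 UMIs) and 869 at 4 weeks (799 UMIs), a log2 ratio of 1.60 (interval 1.43 to 1.79). The 2- and 8-week libraries held it at 471 and 314 CPM. Ankrd37 stood at 11.3 and 33.7 CPM, the glucose transporter Slc2a1 at 273 and 362, and the mitophagy receptor Bnip3 at 307 and 414. Among 11 genes of glucose and lactate transport, 5 had intervals above 0 and 2 below, with a median of 0.30. The lactate exporter Slc16a3 stood at 21.9 and 77.2 CPM, glycogen phosphorylase (Pygm) at 19.6 and 40.2, and glycogen synthase (Gys1) at 15.1 and 29.4. Txnip, which restrains glucose uptake, stood at 151 and 59.8 CPM, a log2 ratio of -1.32 (interval -1.79 to -0.90).

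The core of the hypoxia response element, ACGTG, was searched on both strands of the same promoters. It was present in 6444 of 33469 promoters (19.3%), in 1304 of 4680 genes used in Müller glia (27.9%), in 27 of 118 genes at least 2-fold higher (22.9%) and in 12 of 73 at least 2-fold lower (16.4%). Of 16 hypoxia list members with a promoter, 11 held it (68.8%). Genes without a promoter entry were left out of all these counts. The share among higher genes was thus under that of all genes used. The stretches below are those of 3 members that were higher, printed with the match in capitals, 5′ to 3′ on the strand of the gene. P4ha2, a collagen hydroxylase, lies on the plus strand at chr10:38743739-38743787, Ddit4, an inhibitor of the mTOR kinase, on the minus strand at chr20:28437149-28437197, and Slc2a1 on the plus strand at chr5:138002449-138002497.
P4ha2: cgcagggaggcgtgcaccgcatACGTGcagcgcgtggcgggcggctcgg
Ddit4: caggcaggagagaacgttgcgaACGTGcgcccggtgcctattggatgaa
Slc2a1: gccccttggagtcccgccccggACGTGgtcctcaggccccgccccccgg
The matches began 133, 138 and 51 bases before the starts of P4ha2, Ddit4 and Slc2a1. In Müller glia P4ha2 stood at 12.8 and 44.6 CPM and Ddit4 at 223 and 386.

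Immediate early genes were higher in Müller glia, with 9 of 13 intervals above 0, none below, and a median of 0.68. Egr1 stood at 83.7 and 190.3 CPM, Btg2 at 80.7 and 181, and Gadd45b, a stress-induced growth arrest gene, at 24.9 and 69.6. Of 12 p53 targets and growth arrest genes, 6 had intervals above 0 and none below, with a median of 0.54. Cdkn1a, the cell cycle inhibitor p21, stood at 19.6 and 40.2 CPM and the death receptor Fas at 12.8 and 29.4. Glial reactivity genes were split, with 5 of 15 intervals above 0, 3 below, and a median of 0.07. The iron-trapping protein Lcn2 stood at 1.51 CPM in control (2 UMIs) and 39.2 at 4 weeks, a log2 ratio of 4.40, Gfap at 22.6 and 72.9, and Timp1, a protease inhibitor, at 30.9 and 77.2. A single cell held 66.7% of the Gfap UMIs in control and 47.8% at 4 weeks, 50% of those of Lcn2 in each library, and 31.0% of those of Timp1 at 4 weeks. The hyaluronan receptor Cd44 (195 and 108 CPM) and the cytokine receptor Il6st (41.5 and 20.7) were lower. Cell surface class I genes had 7 of 10 intervals above 0, none below, and a median of 0.77. RT1-A2 stood at 214 and 514 CPM and B2m, their shared light chain, at 1101 and 1374. Near-identical RT1 genes and strain alleles can move reads between symbols, so single RT1 values are uncertain.

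Genes of Müller glial support other than the naming markers were lower or split. The markers left out of the list include Glul, Slc1a3, Rlbp1, Aqp4 and Kcnj10. All 16 naming markers, Apoe among them, summed to 62732 CPM in control Müller glia and 68206 at 4 weeks. Of 13 homeostasis genes 5 had intervals below 0 and 3 above, with a median of -0.20 (0.023 at a minimum of 100 CPM), and Sox8 stood at 111 and 64.2 CPM. Of 12 barrier genes 5 had intervals above 0 and 3 below, with a median of 0.25. Ndp, the Norrin ligand that maintains retinal vessels, stood at 53.5 and 23.9 CPM, the thyroid hormone transporter Slco1c1 at 75.4 and 32.6, and Cav1, caveolin, at 1158 and 753. Tjp1, a tight junction scaffold, was higher, at 62.6 and 87.0. Of 53 cytosolic ribosomal protein genes 32 had intervals below 0 and 1 above, with a median of -0.26. By the naming rule the neuropeptide Gal was among the higher genes, at 71.6 and 239 CPM, as was Adam11 at 87.4 and 253. Among the lower genes were the protease Prss56, at 180.2 CPM (239 UMIs) and 1.09 (1 UMI), the myelin glycoprotein gene Omg at 629 and 271, and Camk2n1, an inhibitor of a calmodulin kinase, at 158 and 64.2. Prss56 stood at 41.4 and 429 CPM at 2 and 8 weeks, so the 4 libraries spread over a wide range for it.

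Bipolar cells were compared over 271 control and 312 diabetic cells. Of 5641 genes used, 107 were at least 2-fold higher (1.9%) and 106 at least 2-fold lower (1.88%), with a median of 0.10. Genes of inhibitory transmission were in part lower. Of 8 used, 4 had intervals below 0 and none above, with a median of -0.29. Slc12a5, the chloride exporter on which inhibition depends, stood at 73.7 and 34.5 CPM, and the GABA receptor subunit Gabrr2 at 333 and 217. Within clusters 8, 11, 14 and 20 the interval of Gabrr2 held 0. In the ON bipolar cascade, by which these cells respond to glutamate, 1 interval was above 0 and 2 below of 8, with a median of 0.02 (-0.05 and -0.07 under TMM and median-of-ratios scaling), and Nyx, its surface anchor, stood at 62.6 and 34.5. Splicing genes were higher, 13 of 28 above and 4 below, with a median of 0.25. Luc7l3 stood at 419 and 752 CPM and Snrnp70 at 341 and 690.4. Hypoxia genes had 7 of 17 intervals above 0 and 1 below, with a median of 0.25. The pyruvate dehydrogenase kinase Pdk1 stood at 16.6 and 44.3 CPM and hexokinase 2 (Hk2) at 313 and 517. Within clusters 8, 11 and 20 the interval of Hk2 held 0, and in clusters 14 and 17 it lay above 0. Cluster 17, of 10 control and 22 diabetic cells, held Hk2 at 1225 and 2208 CPM. Of 16 immediate early genes 4 had intervals above 0 and 2 below, with a median of 0.03 (-0.05 and -0.07 under the same scalings, 0.70 in cells thinned to 1000 UMIs and 1.55 with free RNA subtracted). Fos stood at 197 and 451 CPM and Egr1 at 39.6 and 123. Ribosomal protein genes had 18 of 53 intervals below 0 and 2 above, with a median of -0.11.

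Named bipolar genes included the glycogen-targeting subunit Ppp1r3c, at 8.29 CPM in control (9 UMIs) and 54.2 at 4 weeks (55 UMIs), a log2 ratio of 2.64 (interval 1.68 to 3.91). The protocadherin Pcdh9 stood at 35.0 and 105 CPM, the collagen gene Col11a1 at 356 and 738, and Pabpn1, which binds poly(A) tails, at 328 and 722. The matrix protein gene Sparcl1 stood at 354 and 98.5 CPM, the granin Scg2 at 796 and 393, the co-chaperone Dnaja1 at 941 and 465, and the transferrin receptor Tfrc at 101 and 38.4. With a mitochondrial limit of 10%, which keeps still fewer bipolar cells, Gabrr2 (0.22), Nyx (0.059) and Scg2 (1.05) had log2 ratios above 0. Bipolar clusters differed in weight. Cluster 8, of which Col11a1 is a leading gene, held 98 control and 167 diabetic cells, and cluster 14 held 71 and 45. Pcdh9 was higher in clusters 8 and 20, with log2 ratios of 1.94 and 3.21, and its intervals held 0 in clusters 11, 14 and 17. Within cluster 14, which held most Sparcl1, it stood at 1189 and 554 CPM and Scg2 at 1125 and 244, whereas in cluster 20 (18 and 16 cells) Scg2 was higher, at 465 and 974. Luc7l3 was higher in clusters 8, 11, 14 and 20 with intervals above 0.

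Amacrine cells were compared over 185 control and 276 diabetic cells. Of 5719 genes used, 82 were at least 2-fold higher (1.43%) and 72 at least 2-fold lower (1.26%), with a median of 0.03. Immediate early genes were higher, with 10 of 14 intervals above 0, none below, and a median of 0.67. Dusp1 stood at 43.6 and 158 CPM, a log2 ratio of 1.85, Fos at 279 and 640.2, Egr1 at 135 and 292, and Fosb at 50.0 and 115. In the 2- and 8-week libraries Fos stood at 56.3 and 316 CPM and Egr1 at 59.6 and 196. Neuropeptide genes were split, 3 above and 3 below of 11, with a median of -0.05. Crh, the corticotropin-releasing hormone, stood at 8.57 CPM in control (12 UMIs) and 63.3 at 4 weeks (105 UMIs), a log2 ratio of 2.83 (interval 2.02 to 3.88), with 15.2 and 4.91 CPM at 2 and 8 weeks. A single cell held 58.3% of the Crh UMIs in control and 23.8% at 4 weeks. Vip stood at 429 and 297 CPM, and Tac1 at 680.5 and 757. Inhibitory transmission genes were also split, 3 above and 3 below of 10, with a median of -0.11. The glycine receptor subunit Glra3 stood at 107 and 36.2 CPM, and Gabbr2, of the metabotropic GABA receptor, at 27.1 and 47.0.

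Biosynthetic and respiratory genes were lower in amacrine cells by small amounts. Of 53 ribosomal protein genes 40 had intervals below 0 and 1 above, with a median of -0.24, and Rps6 stood at 219 and 129 CPM. Of 55 nuclear respiratory chain genes 25 were below and none above, with a median of -0.15, and Cox7c stood at 1556 and 1151. Of 18 cholesterol synthesis genes 7 were below and none above, with a median of -0.18, and Hmgcs1, which makes the first committed substrate, stood at 531 and 406. Hypoxia genes had 7 of 16 intervals above 0 and 1 below, with a median of 0.24. Pdk1 stood at 20.0 and 50.0 CPM, and Ndrg1 was lower, at 61.4 and 29.5. Named genes included the sodium pump regulator Fxyd7 at 124 and 283 CPM, Pcp4l1 at 103 and 263, and the actin-binding Dbn1 at 55.7 and 131. Lower were the retinal transcription factor genes Six3 at 485 and 165 CPM and Mab21l2 at 211 and 64.5, the lipid carrier Sec14l3 at 90.0 and 12.7, and Pkib, a protein kinase A inhibitor, at 75.7 CPM (106 UMIs) and 1.81 (3 UMIs). Pkib stood at 29.8 and 2.18 CPM at 2 and 8 weeks. Cluster 10 held 109 control and 113 diabetic amacrine cells and cluster 13 held 69 and 148. Fos, Dusp1, Crh, Six3, Mab21l2 and Sec14l3 moved the same way in both, with intervals that left out 0. At a Leiden resolution of 2.0 the log2 ratio of Tac1 was -0.039, and Ndrg1 stood at 0.23 with a mitochondrial limit of 10%.

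Cones were compared over 86 control and 57 diabetic cells, with 330843 and 234402 UMIs. Of 2631 genes used, 71 were at least 2-fold higher (2.7%) and 89 at least 2-fold lower (3.38%), of which 65 and 73 had intervals that left out 0, and the median was -0.01. Ribbon synapse genes were lower more often than higher, with 7 of 16 intervals below 0 and 3 above and a median of -0.26. Lrit3, which aligns the synapse with bipolar dendrites, stood at 187 and 42.7 CPM, the fusion protein gene Stx3 at 99.7 and 42.7, and Dmd at 1176 and 751. Of 15 outer segment and cilium genes 5 had intervals below 0 and none above, with a median of -0.18, and Bbs2, of the ciliary coat complex, stood at 75.6 and 21.3. Named genes included the thyroid hormone binding protein Crym at 973 and 247 CPM, Pax4 at 366 and 64.0, and Igf2bp2, an mRNA binding protein, at 139 and 21.3. Higher were the retinol carrier Rbp4 at 1124 and 2389 CPM, Cd63, a membrane protein of endosomes, at 69.5 and 384, and the amino acid deacylase Acy1 at 57.4 and 349.8. Dmd and Pax4 were lower in rods as well. Rod markers summed to 19855 and 17193 CPM in cones, and beside the estimates of 72.7 and 41.0% free RNA, rod RNA in these droplets and genes that both cell types use cannot be told apart.

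Microglia were compared over 202 control and 79 diabetic cells. Of 4276 genes used, 198 were at least 2-fold higher (4.63%) and 279 at least 2-fold lower (6.52%), of which 167 and 236 had intervals that left out 0, with a median of 0.12. TMM and median-of-ratios scaling moved all microglial log2 ratios by -0.15 and -0.11, and those of rods by 0.09 and 0.12. Inflammatory genes were lower. Chemokines had 8 of 10 intervals below 0 and 2 above, with a median of -1.79, and 13 of 17 cytokines and NF-kB targets were below and none above, with a median of -1.48. Cxcl2, which attracts neutrophils, stood at 2004 CPM in control (2074 UMIs) and 203 at 4 weeks (66 UMIs), a log2 ratio of -3.30 (interval -3.68 to -2.95). Cd83 stood at 1559.7 and 534 CPM, and Nfkbiz at 519 and 132. Ccl6 and Cxcl10 were the chemokines that were higher, at 57.0 and 267 CPM and at 156 and 310.1. Of 27 immediate early genes 21 were below and 1 above, with a median of -1.67. Jun stood at 8472 and 1986 CPM, Fos at 4133 and 1237, and Egr4 at 119.8 CPM (124 UMIs) and 3.07 (1 UMI). Of 17 heat shock genes 9 were below and none above, with a median of -0.62, and the inducible chaperone Hspa1b stood at 423 and 24.6 CPM. Zc3h12a and Zfp36l1, which degrade inflammatory mRNAs, stood at 167 and 12.3 CPM and at 826 and 157.

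In microglia some genes of cholesterol efflux were higher and some of cholesterol synthesis lower. Of 10 genes of cholesterol efflux and lipoproteins 4 had intervals above 0 and none below, with a median of 0.47. Apoe, the carrier apolipoprotein, stood at 3083 CPM in control (3190 UMIs) and 13106 at 4 weeks (4269 UMIs), a log2 ratio of 2.09 (interval 2.02 to 2.15). The exporters Abcg1 and Abca1 stood at 25.1 and 107 CPM and at 18.4 and 61.4. Of 11 cholesterol synthesis genes 5 were below and none above, with a median of -0.65. Idi1 stood at 536 CPM (555 UMIs) and 33.8 (11 UMIs), Hmgcs1 at 136 and 21.5, and Srebf2, their activator, at 52.2 and 12.3. Of the control Idi1 UMIs 536 lay in the chemokine-high cluster 18, within which its log2 ratio was -2.86, and in clusters 15 and 25 its intervals held 0. Lysosomal genes had 12 of 29 intervals above 0 and none below, with a median of 0.16. Cd68 stood at 83.1 and 230.3 CPM, the cathepsin Ctsb at 1352 and 2155, and Psap at 3134 and 4141. Disease-associated genes were split, 9 above and 5 below of 17, with a median of 0.17. Axl was higher, at 61.8 and 104 CPM, and Igf1 (37.7 and 6.14), Cd9 (329.5 and 157) and Cd74 (387 and 166) were lower. Homeostatic receptor genes had 5 of 15 intervals below 0 and 2 above, with a median of -0.08. P2ry13, a nucleotide receptor, stood at 79.2 and 27.6 CPM. Energy genes were higher. Of 11 glycolysis genes 7 were above and none below, with a median of 0.52, and Ldhb stood at 139 and 344 CPM. Of 53 nuclear respiratory chain genes 23 were above and none below, with a median of 0.39. Of 53 ribosomal protein genes 37 were above and 1 below, with a median of 0.26 (0.11 under TMM scaling and 0.063 at a Leiden resolution of 0.5). Capg, which caps actin filaments, stood at 16.4 and 163 CPM, and fumarate hydratase (Fh) at 76.3 and 215.

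The microglial values carry several measured differences between the libraries. Median depth was 5715.5 UMIs per cell in control and 3046 at 4 weeks. The chemokine-high cluster 18 held 78 of 202 control microglia (38.6%, interval 31.9 to 45.7%) and 7 of 79 at 4 weeks (8.86%, 3.64 to 17.4%). Within cluster 18 Fos stood at 7078 and 6453 CPM with an interval that held 0, Il1b was higher at 2493 and 3809, and Ccl4 was lower at 10887 and 2069. Fos had an interval that held 0 in cluster 15 too. At 4 weeks a single cell held 80.6% of all microglial Ccl4 UMIs and 57.6% of those of Cxcl2. Without cluster 18 the medians were -0.43 for cytokines and NF-kB targets, -0.63 for immediate early genes and 0.21 for heat shock genes, and Ccl4, then at 1 UMI in control and 13 at 4 weeks, had a log2 ratio of 3.89. Apoe was higher in all 3 microglial clusters, with log2 ratios of 1.92 in cluster 18, 1.66 in cluster 15 and 2.11 in cluster 25, and Capg and Ccl6 had intervals above 0 in all 3. Müller glial markers without Apoe summed to 796 CPM in control microglia (11 of 15 with UMIs) and 694 at 4 weeks (9 of 15). Erythroid markers summed to 2296 and 21.5 CPM. Among barcodes over the mitochondrial limit that were nearest to microglia, 30 in control and 68 at 4 weeks, Apoe stood at 1384 and 8009 CPM and Ccl4 at 1585 and 58.0. In the same barcodes the microglial marker C1qa stood at 1845 CPM (128 UMIs) and 591 (51 UMIs), and Csf1r at 1355 and 371. The identity of these barcodes is therefore uncertain, above all at 4 weeks. Their part in the results was not tested.

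Endothelial cells were compared over 92 control and 33 diabetic cells, with 751224 and 365336 UMIs. Of 4399 genes used, 150 were at least 2-fold higher (3.41%) and 171 at least 2-fold lower (3.89%), of which 143 and 151 had intervals that left out 0, and the median was 0.00. Metal-binding and iron genes were split. Of 16 used, 8 had intervals above 0 and 4 below, 6 were at least 2-fold higher, and the median was 0.28. The metallothioneins Mt1 and Mt2A stood at 117 and 1024 CPM and at 16.0 and 233, with log2 ratios of 3.12 and 3.81. A single cell held 64.8 and 63.4% of the Mt1 UMIs in control and at 4 weeks, and 83.3 and 72.9% of those of Mt2A. The ferritin heavy chain Fth1 stood at 4771 and 7708 CPM and Hmox1, which breaks down heme, at 21.3 and 57.5. Tfrc, which imports iron, was lower, at 188 CPM (141 UMIs) and 41.1 (15 UMIs). Glucocorticoid targets had 9 of 15 intervals above 0 and 2 below, with a median of 0.46, and 2 of these were the same metallothioneins. Zbtb16 stood at 17.3 and 46.5 CPM and Ddit4 at 489.9 and 922. Immediate early genes had 13 of 23 intervals above 0 and 3 below, with a median of 0.33. Fosb stood at 588 and 1856 CPM, Jund at 1801 and 4054 and Fos at 2819 and 6222, while Nr4a1 (700.2 and 271) and the flow-responsive factor Klf2 (62.6 and 30.1) were lower.

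Barrier genes of the endothelium had 6 of 18 intervals above 0 and 2 below, with a median of 0.11. Lef1, which acts in Wnt signalling, stood at 198 and 452 CPM, Sox18 at 184 and 397, and Sox17 at 552 and 821. The drug exporter Abcg2 was higher, at 489 and 679, and the leucine exchanger Slc7a5 lower, at 628 and 279. Of 12 basement membrane and matrix genes 4 were above and 3 below, with a median of 0.13, and Col4a1, a collagen of the basement membrane, stood at 347 and 194 CPM and Sparc at 3051 and 1744. Of 13 cytoskeletal genes 9 were below and 2 above, with a median of -0.56, among them Tuba1a at 1395 and 695 and Actb at 2034 and 1207. Of 16 cholesterol synthesis genes 4 were below and none above, with a median of -0.48, and Idi1 stood at 359 and 205. Class I genes had 6 of 10 intervals above 0 and 1 below, with a median of 0.47. RT1-T24-4 stood at 50.6 and 599 CPM and RT1-T24-3 at 984 and 361, 2 symbols whose reads can move between alleles. Named genes included the ceramidase Acer2 at 228 and 1185 CPM (171 and 433 UMIs), Ndrg1 at 390.0 and 942, the growth factor Ptn at 407 and 123, and Csrp2 at 3506 and 1519. Without the single cell that held most UMIs of each gene in each library, the medians were -0.31 for metal-binding and iron genes, -0.078 for immediate early genes, 0.033 for glucocorticoid targets and -0.26 for barrier genes. These medians are not particular to the lists, as a single cell is a larger part of the smaller library. In that setting 39 of all endothelial genes were at least 2-fold higher and 357 at least 2-fold lower. At 4 weeks a single cell held 31.2% of the Fos and 39.1% of the Jund UMIs. In cells thinned to 1000 UMIs, Abcg2 had a log2 ratio of -0.13 and Klf2 one of 1.10. Markers of pericytes or smooth muscle summed to 62.6 CPM in control endothelium and 145 at 4 weeks (9 of 12 with UMIs in each), and their part was not tested.

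Across classes the immediate early genes differed in direction, with medians of -1.67 in microglia, -0.99 in rods, 0.03 in bipolar cells, 0.33 in endothelium, 0.67 in amacrine cells and 0.68 in Müller glia. Fos was higher at 4 weeks in bipolar cells, amacrine cells, Müller glia and endothelium, with log2 ratios of 1.19, 1.20, 0.75 and 1.14, lower in microglia at -1.74, and near equal in rods at 0.02. Alternatives moved these medians to -0.63 in microglia without cluster 18 and to 0.70 in thinned bipolar cells. Without the top cell of each gene the endothelial median was -0.078, while endothelial genes at least 2-fold lower went from 171 to 357. The difference between classes was not tested. The ATF4 list had a median of -1.28 in rods, 0.03 in bipolar cells, 0.03 in amacrine cells, 0.06 in Müller glia, -0.29 in endothelium and -0.88 in microglia, beside medians over all genes from 0.00 to 0.12 in these classes. Cholesterol synthesis had medians below 0 in Müller glia (-0.29), amacrine cells (-0.18), endothelium (-0.48) and microglia (-0.65), and above 0 in rods (0.15) and bipolar cells (0.05).

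**Figure D4:**
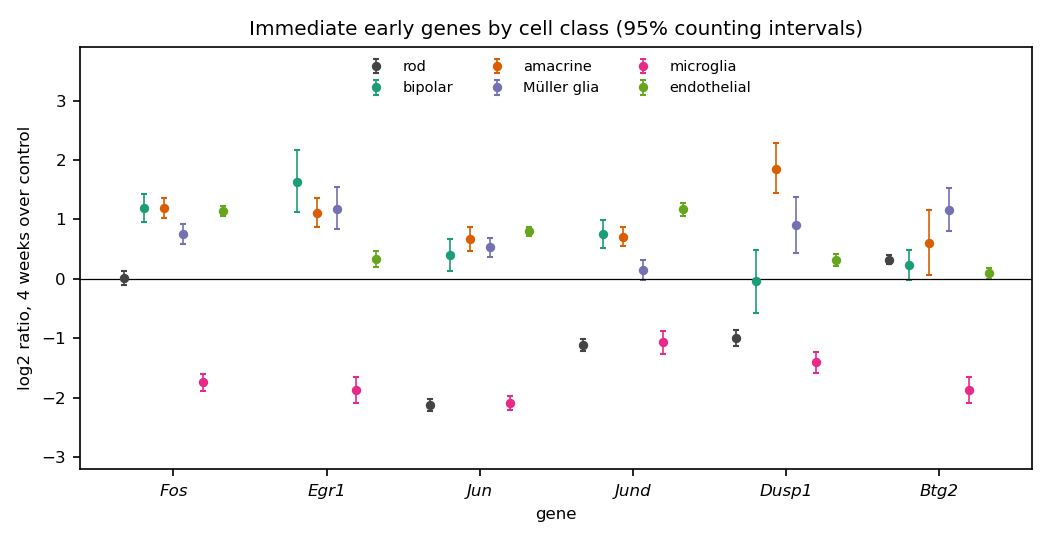
Log2 ratio of 4 weeks over control (vertical axis) for 6 immediate early genes in 6 cell classes (colours), with 95% counting intervals. Microglial points lie below 0 for all 6 genes, from -2.09 for Jun to -1.06 for Jund, and amacrine points lie above 0 for all 6.

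**Figure D5:**
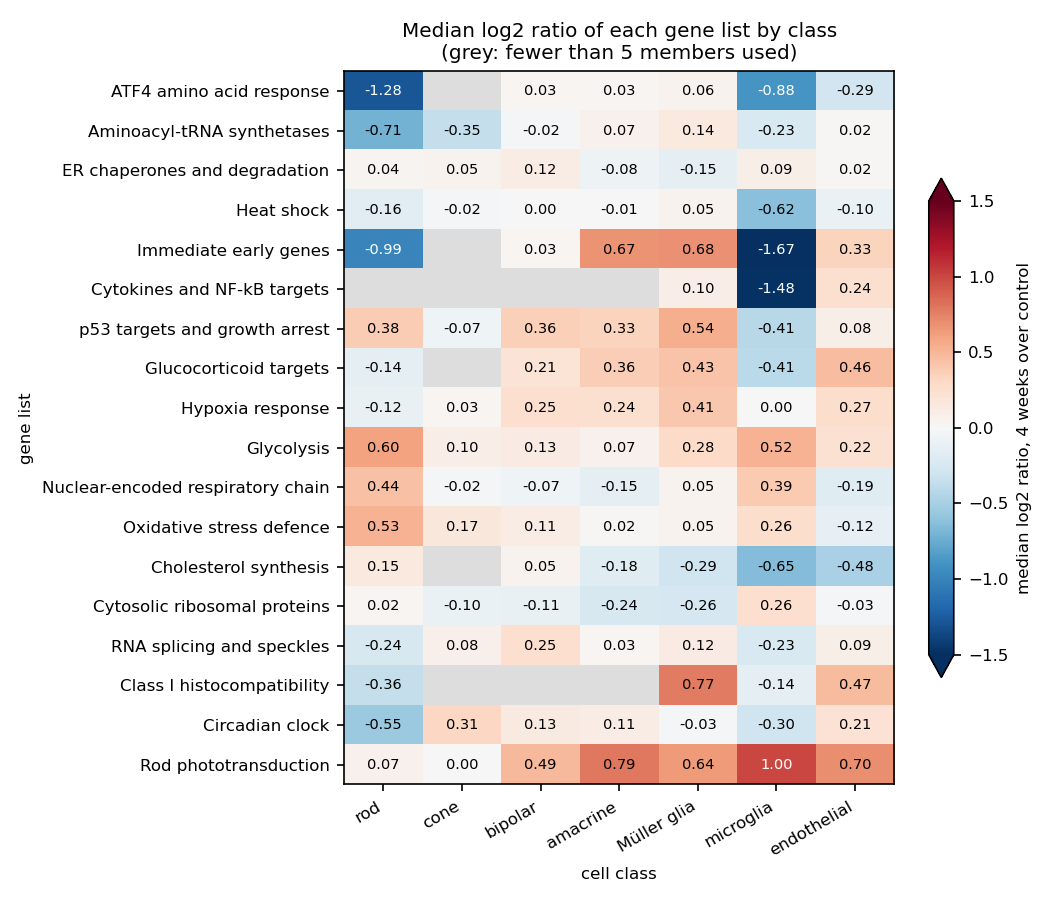
Median log2 ratio of 4 weeks over control for 18 gene lists (rows) in 7 cell classes (columns), with red for higher and blue for lower at 4 weeks and grey where fewer than 5 members were used. The deepest blue fields are the ATF4 list in rods (-1.28) and the immediate early genes and cytokine lists in microglia (-1.67 and -1.48), and the rod phototransduction row is red in every class but rods and cones.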

How the data were processed

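Droplet libraries of rat retina were compared as deposited. The authors deposited raw counts of UMIs per gene and barcode for 25399 genes, and Cell Ranger 3.0.1 and the Rnor_6.0 build are named in the submitters' processing notes. The annotation release is not given in the sources used here, and 128 symbols belong to more than 1 gene. Every deposited barcode had at least 500 UMIs.

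Cells were filtered as stated above. Scrublet's automatic threshold called 2 and 0 doublets in these libraries, so cells were removed by rank of score, at a rate of 0.8% per 1000 barcodes (577 and 721 cells). With scanpy 1.11.5, 2000 variable genes, 30 components and 15 neighbours, Leiden clustering (leidenalg 0.10.2) at resolution 1.0 of the 4 libraries gave clusters, named from markers of 25 cell types. Assignment to the nearest cluster mean returned the class of 98.8% of clustered cells. Classes with at least 30 cells in both libraries were compared. Doublets stayed in the sum over all cells.

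UMIs were summed per library and class and given as CPM and as log2 ratios with 0.5 counts added to each sum. Intervals of ratios are exact conditional binomial and those of shares exact Clopper-Pearson (scipy 1.17.1), and cover counting error only. Scripts were tested on simulated data. Gene lists omit the markers that named a class. The naming rule took, per class, the 8 genes higher and 8 lower whose intervals lay farthest from 0 at 50 CPM or more, at most 5 members per described list, and some fixed genes. Other genes given were chosen after their values were seen. All members, lists and named genes were chosen with earlier results of these data known. TMM scaling used edgeR 4.0.16 in R 4.3.3. The alternatives were other filters, clusterings, scalings, minimum levels and thresholds, thinning, free-RNA subtraction and removal of the top cell of each gene.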

Additional observations from a re-analysis of the deposited data

Results flagged for a closer look

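Some genes were at least 2-fold higher in 1 class and at least 2-fold lower in another at 4 weeks, with counting intervals that left out 0 on both sides. Fos had a log2 ratio of 1.19 in bipolar cells, 1.20 in amacrine cells and 1.14 in endothelium, and of -1.74 in microglia. Within microglial clusters 18 and 15 the log2 ratio of Fos was -0.13 and -0.43, with intervals that held 0, and in cluster 25 it was -1.49. Cluster 18 held 78 of 202 control microglia and 7 of 79 at 4 weeks. Ndrg1 had a log2 ratio of 1.27 in endothelium and of -1.05 in amacrine cells, where it turned to 0.23 with a mitochondrial limit of 10%. With 1 library a side, the difference between these classes was not tested.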

How the results depend on the processing

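No result could be checked against a second library, so only the processing was varied. The alternatives of clusters and of weighting were added after seeing the data. Of the log2 ratios of named genes recomputed under alternatives, 2279 stayed within the counting interval of the value reported, 432 left it, and 15 turned sign where the interval reported left out 0. Of 916 recomputed list medians, 847 moved by at most 0.5 times the median width of the members' counting intervals. In all, 44 lay on the other side of 0 from the value reported, which was within 0.1 of 0 for 23 of them. All 16 counts of genes past the threshold moved by over 1.5 times at 1.5-fold, at 3-fold, at 100 CPM and with no CPM minimum, and 8 did at 5 CPM. These settings fix how many genes enter. Other causes were not tested. With a mitochondrial limit of 10%, higher genes numbered 24 for cones, 172 for amacrine cells and 93 for all cells, while lower genes numbered 27 for cones, 120 for amacrine cells and 51 for bipolar cells. List medians were, in rods, immediate early genes -0.78 and rod phototransduction 0.13. The log2 ratio of the share was -1.35 for cones and 0.29 for bipolar cells. The sign turned for Ndrg1 (0.23) in amacrine cells, and Gabrr2 (0.22), Nyx (0.059) and Scg2 (1.05) in bipolar cells. With a limit of 40%, higher genes numbered 29 for bipolar cells, while lower genes numbered 41 for bipolar cells. The log2 ratio of the share was -0.31 for bipolar cells and 0.19 for rods. With at least 1000 UMIs per barcode, medians were, in rods, outer segment and cilium -0.26 and RNA splicing and speckles -0.37. The log2 ratio of the share was -0.29 for Müller glia. With doublets kept, medians were, in microglia, chemokines -1.18. At a Leiden resolution of 0.5, medians were, in microglia, cytosolic ribosomal proteins 0.063. At a resolution of 2.0, the sign turned for Tac1 (-0.039) in amacrine cells. With only these 2 libraries clustered, medians were, in microglia, cytosolic ribosomal proteins 0.083. Under TMM scaling, higher genes numbered 112 for microglia. Medians of lists were, in microglia, cytosolic ribosomal proteins 0.11, and in rods, rod phototransduction 0.16 and RNA splicing and speckles -0.15. Under median-of-ratios scaling, higher genes numbered 130 for microglia and 129 for rods. The medians were, in rods, glycolysis 0.72, nuclear-encoded respiratory chain 0.56, rod phototransduction 0.19 and RNA splicing and speckles -0.12. The sign turned for Atf4 (0.023) in rods. In cells thinned to 1000 UMIs, higher genes numbered 54 for microglia, 27 for endothelium, 18 for cones and 94 for Müller glia, while lower genes numbered 93 for microglia, 52 for endothelium, 22 for cones, 41 for amacrine cells and 63 for bipolar cells. List medians were, in microglia, chemokines -2.56, immediate early genes -2.16 and disease-associated microglia -0.077, and in endothelium, blood-retina barrier -0.26, glucocorticoid targets 0.16 and immediate early genes 0.60, and in bipolar cells, immediate early genes 0.70, and in rods, immediate early genes -1.13, glycolysis 0.84, nuclear-encoded respiratory chain 0.56 and RNA splicing and speckles -0.36. The sign turned for Abcg2 (-0.13) and Klf2 (1.10) in endothelium. With free RNA subtracted, higher genes numbered 110 for cones and 227 for bipolar cells. Medians of lists were, in amacrine cells, immediate early genes 1.17, and in bipolar cells, immediate early genes 1.55. With a minimum of 5 CPM, higher genes numbered 219 for amacrine cells, 200 for bipolar cells, 185 for rods and 124 for all cells, while lower genes numbered 163 for amacrine cells, 202 for Müller glia, 557 for rods and 561 for all cells. With a minimum of 100 CPM, higher genes numbered 25 for microglia, 34 for endothelium, 21 for cones, 9 for amacrine cells, 10 for bipolar cells, 17 for Müller glia, 18 for rods and 13 for all cells, while lower genes numbered 82 for microglia, 35 for endothelium, 24 for cones, 9 for amacrine cells, 10 for bipolar cells, 21 for Müller glia, 54 for rods and 53 for all cells. List medians were, in microglia, chemokines -1.28, and in Müller glia, Müller homeostasis 0.023, and in rods, ATF4 amino acid response -1.01, aminoacyl-tRNA synthetases -1.37, glycolysis 0.73, rod phototransduction 0.17, ribbon synapse 0.0017 and circadian clock -0.26. With no CPM minimum and 10 UMIs, higher genes numbered 613 for microglia, 563 for endothelium, 358 for cones, 570 for amacrine cells, 524 for bipolar cells, 462 for Müller glia, 416 for rods and 454 for all cells, while lower genes numbered 764 for microglia, 465 for endothelium, 378 for cones, 450 for amacrine cells, 450 for bipolar cells, 525 for Müller glia, 1335 for rods and 1637 for all cells. Medians of lists were, in rods, immediate early genes -0.73, glycolysis 0.49 and oxidative stress defence 0.18. At 1.5-fold, higher genes numbered 735 for microglia, 547 for endothelium, 281 for cones, 480 for amacrine cells, 641 for bipolar cells, 679 for Müller glia, 517 for rods and 507 for all cells, while lower genes numbered 600 for microglia, 512 for endothelium, 284 for cones, 278 for amacrine cells, 389 for bipolar cells, 459 for Müller glia, 743 for rods and 496 for all cells. At 3-fold, higher genes numbered 31 for microglia, 30 for endothelium, 9 for cones, 11 for amacrine cells, 15 for bipolar cells, 20 for Müller glia, 11 for rods and 3 for all cells, while lower genes numbered 123 for microglia, 42 for endothelium, 21 for cones, 18 for amacrine cells, 17 for bipolar cells, 15 for Müller glia, 57 for rods and 83 for all cells. Without the cell with the most UMIs of each gene, a larger part of the smaller library, higher genes numbered 119 for microglia and 39 for endothelium, while lower genes numbered 357 for endothelium. Medians of lists were, in microglia, immediate early genes -2.12, and in endothelium, blood-retina barrier -0.26, cytoskeleton and axon -0.86, glucocorticoid targets 0.033 and immediate early genes -0.078. Without the chemokine-high cluster, whose removal takes out the cells with chemokines by construction, higher genes numbered 128 for microglia, while lower genes numbered 55 for microglia. The medians were, in microglia, cytokines and NF-kB targets -0.43, immediate early genes -0.63, cytosolic ribosomal proteins 0.046 and heat shock 0.21. The sign turned for Ccl4 (3.89) in microglia. In rods of cluster 3, higher genes numbered 364 for rods. List medians were, in rods, ATF4 amino acid response -0.84, ER chaperones and degradation 0.24, immediate early genes -0.47, glycolysis 0.50, rod phototransduction 0.35, outer segment and cilium 0.23 and circadian clock -0.31. The sign turned for Cacnb2 (0.28), Gucy2f (0.029), Ndufa2 (-0.41), Pfkp (0.14) and Rpgr (0.28) in rods. In rods of cluster 2, higher genes numbered 227 for rods, while lower genes numbered 382 for rods. Medians of lists were, in rods, ATF4 amino acid response -0.83, glycolysis 0.31, oxidative stress defence 0.28, rod phototransduction 0.15 and ribbon synapse 0.00019. With clusters of a class weighted alike, higher genes numbered 326 for microglia and 121 for rods, while lower genes numbered 144 for microglia. The medians were, in microglia, cytokines and NF-kB targets -0.36, immediate early genes -0.62, cytosolic ribosomal proteins 0.047 and heat shock 0.18, and in rods, ATF4 amino acid response -0.98, immediate early genes -0.78, glycolysis 0.49, nuclear-encoded respiratory chain 0.28, rod phototransduction 0.15 and ribbon synapse 0.023. The sign turned for Ccl4 (4.11) in microglia. Depth limits the classes with few cells, above all cones, microglia and endothelium at 4 weeks, and sparse genes of Müller glia and amacrine cells, where single cells hold much of a gene. No paired analysis was possible because each side had 1 library.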
